A study of Mus musculus with 36 samples.

Results

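A set of 9 genes that proliferating cells switch on for DNA replication and mitosis was followed through 6 skeletal muscles of dystrophin-deficient and normal mice. The mitotic genes are Ccna2 (probe set 99186_at), Ccnb2 (94294_at), Mad2l1 (99632_at) and Aurka (92639_at), the proliferation markers are Mki67 (99457_at) and Top2a (99578_at), and the replication genes are Rrm2 (102001_at), Mcm5 (100156_at) and Pcna (101065_at). They were taken by name, as every probe set of the Affymetrix MG_U74Av2 array that the platform annotation gives to them alone. That gave 11 probe sets for the 9 genes, of 12488 probe sets and 8252 named genes in all, since Mki67 and Mcm5 each had a second probe set (161931_r_at and 162102_r_at). The values are signals, linear intensities that the authors scaled to a common level on each array, and higher signal stands for more of a transcript.

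The arrays held mdx, mdx5cv and C57BL10 muscle. Mice of mdx and mdx5cv are mutated body-wide in Dmd, which codes for dystrophin, and C57BL10 is the normal strain they were set against. Each of the 3 strains was represented by diaphragm, EDL (extensor digitorum longus), gastroc (gastrocnemius), quadriceps, soleus and TA (tibialis anterior), with 2 samples for each of the 18 groups. A sample pooled the RNA of 5 males, all 8 weeks old, so the spread between single mice was not measured. Of the 36 columns, mdx gastroc sample 2 and mdx5cv gastroc sample 1 were equal in all 12488 probe sets to quadriceps columns of their own strain and were left out, which left 11 mdx, 11 mdx5cv and 12 C57BL10 arrays. The labels do not say whether the samples of a group came from separate pools, so p-values measure only the spread between these samples.

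Normal adult muscle is largely post-mitotic: the nuclei of a fibre do not divide, and satellite cells, its stem cells, are mostly quiescent. In dystrophic muscle fibres die and are replaced, and satellite cells, myoblasts, fibroblasts and infiltrating leukocytes can all divide there. Genes of the cell cycle are switched on in waves. Many genes of S phase carry E2F sites in their promoters, and many genes of G2 and mitosis carry CCAAT boxes and a CHR (cell cycle genes homology region). In whole muscle RNA more dividing cells and more transcript per cell cannot be told apart.

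RefSeq promoter windows of the mouse build GRCm38.p6 were found for 8 of the 9 genes, all but Ccna2, and the 250 bases before the start were searched on both strands for the CHR (TTTGAA), the CCAAT box (CCAAT), E2F sites (TTTCGCGC or TTTGGCGC) and the GC box (GGGCGG). The 5 windows with 2 or more CCAAT boxes are shown, as the ones that hold most of these letters. Capitals mark CHR, CCAAT and E2F letters on either strand, and the sequences run 5′ to 3′ along the gene.
Ccnb2: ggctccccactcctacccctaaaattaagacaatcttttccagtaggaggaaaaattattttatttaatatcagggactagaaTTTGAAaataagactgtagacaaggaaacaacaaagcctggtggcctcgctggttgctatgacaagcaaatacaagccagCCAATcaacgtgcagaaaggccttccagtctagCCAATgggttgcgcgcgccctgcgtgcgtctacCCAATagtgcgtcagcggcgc
Top2a: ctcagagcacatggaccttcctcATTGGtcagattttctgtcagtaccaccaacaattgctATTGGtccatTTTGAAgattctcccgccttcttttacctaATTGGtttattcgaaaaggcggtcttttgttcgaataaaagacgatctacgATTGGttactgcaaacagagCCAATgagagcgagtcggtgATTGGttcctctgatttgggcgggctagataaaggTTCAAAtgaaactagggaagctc
Mki67: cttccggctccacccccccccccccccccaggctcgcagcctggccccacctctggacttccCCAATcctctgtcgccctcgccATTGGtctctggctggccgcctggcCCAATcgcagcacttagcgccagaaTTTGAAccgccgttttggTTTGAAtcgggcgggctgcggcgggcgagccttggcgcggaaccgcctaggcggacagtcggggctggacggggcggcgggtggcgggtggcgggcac
Mcm5: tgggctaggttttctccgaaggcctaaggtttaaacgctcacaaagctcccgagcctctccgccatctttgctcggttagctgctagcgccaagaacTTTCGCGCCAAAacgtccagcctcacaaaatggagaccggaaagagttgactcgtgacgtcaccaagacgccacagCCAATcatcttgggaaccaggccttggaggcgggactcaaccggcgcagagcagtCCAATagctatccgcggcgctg
Aurka: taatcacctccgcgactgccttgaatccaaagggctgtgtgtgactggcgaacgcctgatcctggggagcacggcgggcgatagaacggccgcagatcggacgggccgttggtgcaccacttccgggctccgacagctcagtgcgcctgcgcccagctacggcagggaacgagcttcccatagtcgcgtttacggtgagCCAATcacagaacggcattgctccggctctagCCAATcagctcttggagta

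These windows lie at chr9:70421555-70421804 (Ccnb2, minus strand), chr11:99024190-99024439 (Top2a, minus strand), chr7:135716380-135716629 (Mki67, minus strand), chr8:75109259-75109508 (Mcm5, plus strand) and chr2:172370571-172370820 (Aurka, minus strand). A CCAAT box stood in 7 of the 8 windows, against 33.8% of the 32851 promoter windows of the same length, and 2 or more stood in 5 of 8, against 10.1%. Top2a held 6 of them, Ccnb2 and Mki67 3 each, and Mcm5 and Aurka 2 each. CHR letters stood in the windows of Ccnb2, Top2a and Mki67, 3 of 8, against 16.0% of all windows, and the GC box in 5 of 8, against 32.7%. Mcm5 was the member with E2F letters, 1 on each strand, which overlap in the run TTTCGCGCCAAA and begin 153 and 149 bases before the start. Such letters were in 0.654% of all windows. Mad2l1 was the member whose window held no CCAAT. A match is a run of letters, not a measured binding site. Other forms of these sites, and bases after the start, were not searched, so a window without a match may still hold a site.

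Some facts about the arrays bear on all values. A pair of arrays, mdx5cv quadriceps sample 2 and C57BL10 TA sample 2, were unlike the rest, with median Spearman correlations to the other arrays of 0.769 and 0.620, against 0.835 to 0.934 elsewhere, and raised low signals, with 40th percentiles of 693 and 855 against 274.1 to 426. They are called the low-correlation arrays. The actin 3′/5′ signal ratio, which is higher in degraded RNA, averaged 1.10 ± 0.343 in mdx (SD, n = 11), 1.03 ± 0.126 in mdx5cv (SD, n = 11) and 0.768 ± 0.114 in C57BL10 (SD, n = 12). Scan periods, read for 30 arrays, were partly tied to strain: 5 mdx and 4 mdx5cv arrays made up the second period, 5 C57BL10 arrays the first, 5 mdx, 6 mdx5cv and 4 C57BL10 arrays the third, and C57BL10 TA sample 1 alone the fourth. Median Dmd signals were 216.5 (mdx), 302 (mdx5cv) and 668 (C57BL10), lower in both mutants (limma adjusted p = 0.00014 and 0.0011). As a check of the tissue, the mean log2 signal of 10 skeletal muscle fibre genes lay from 14.68 to 16.61 in the mutants and from 14.73 to 16.29 in C57BL10.

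In normal muscle many members lay near the background. Values at or under 118, the 20th percentile of the table, were set to that floor before taking logs, and on each array the 40th percentile of its own signals served as a mark of values near the background. Of the 9 members, 0 to 4 lay under that mark on an mdx array (median 2), 1 to 3 on an mdx5cv array (median 2) and 3 to 6 on a C57BL10 array (median 4). The arrays with none under it were both mdx EDL samples. The C57BL10 arrays with 5 or more were diaphragm samples 1 and 2, gastroc sample 1, soleus sample 1 and TA sample 2. Top2a and the first probe set of Mki67 did not pass the filter on the mean signal (350.5) that left 7453 probe sets for testing, so their tests come from a fit over all 12422 probe sets without the filter. Mki67 is counted among the 8 members that passed through its second probe set. The plot of signals by muscle shows each gene on every array.

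**Figure D1:**
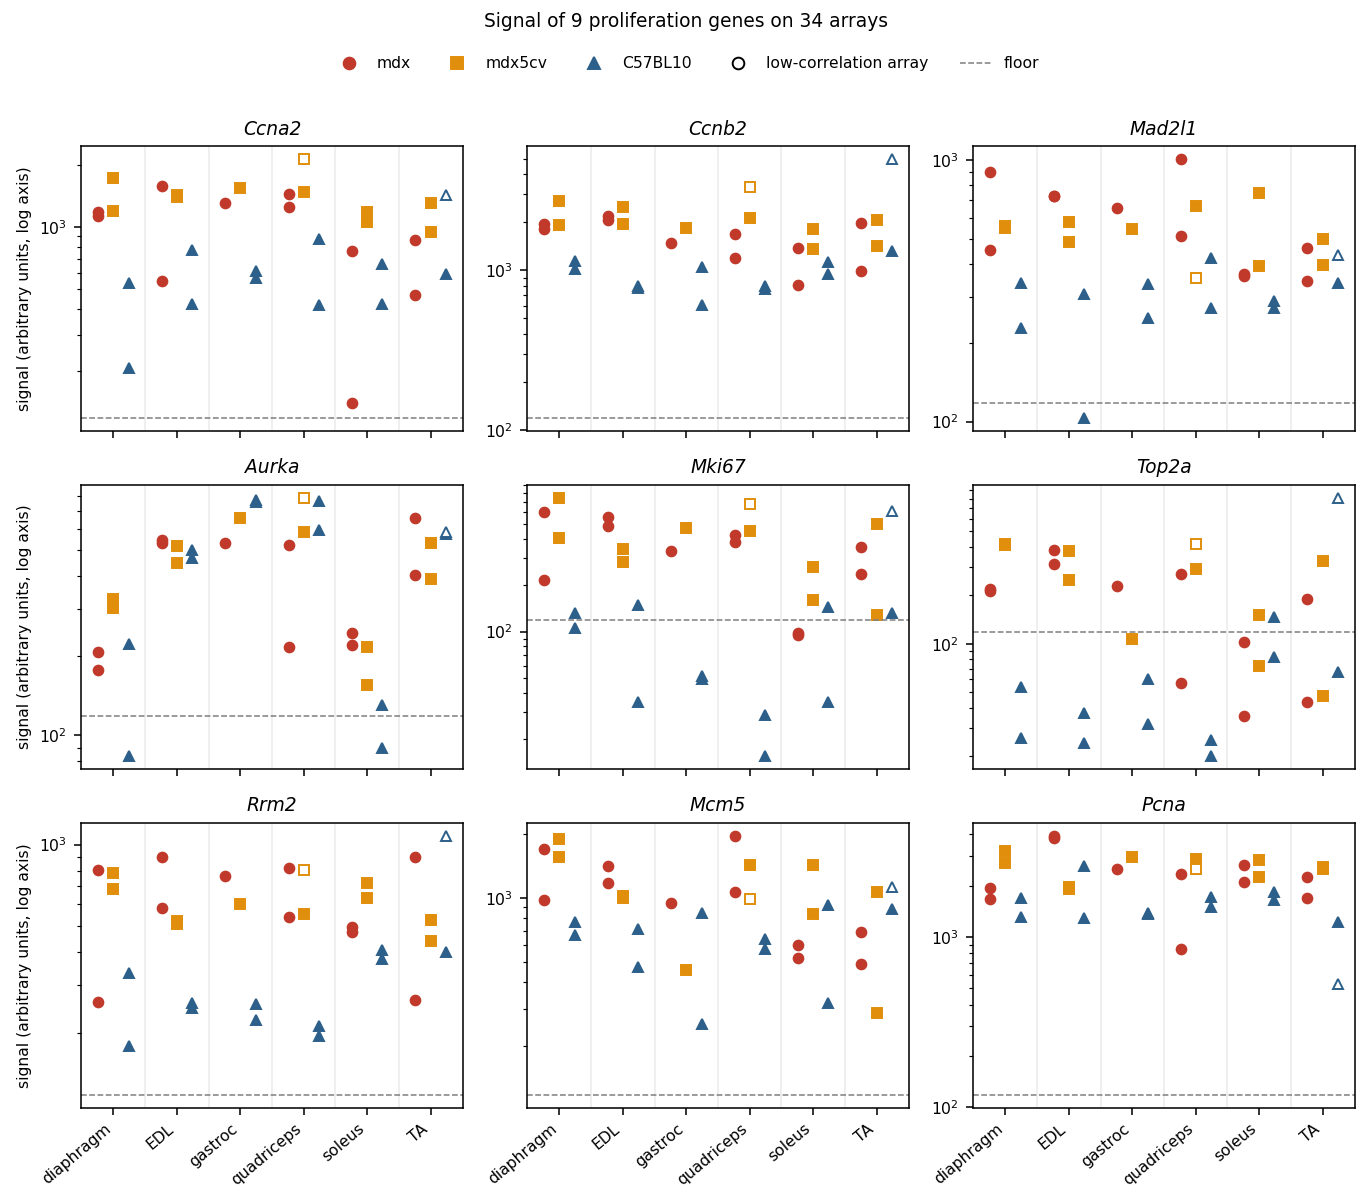
Signal (arbitrary units, log axis) of the 9 genes on 34 arrays, by muscle, with mdx, mdx5cv and C57BL10 from left to right, 1 point per array, open points for the 2 low-correlation arrays and a dashed line at the floor of 118. Mki67 reached 94.3 to 743 in the mutants, and the open C57BL10 TA point at 606 stands above the other C57BL10 arrays, which lay from 15.4 to 149.3.

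The cyclins were higher in the mutants. Averaged over the 6 muscles with equal weight, Ccna2, the cyclin of S phase and mitotic entry, and Ccnb2, a B-type cyclin of mitosis, rose in mutant over normal muscle, and so did Mad2l1, Rrm2 and Pcna, 5 of the 8 members that passed the filter, with none lower. Among all tested probe sets 12.3% were called higher and 6.61% lower. The filter used the mean over mutant and C57BL10 arrays together, for members and other probe sets alike. Mad2l1 and Rrm2 had C57BL10 medians of 297 and 257, under the filter value of 350.5, and mutant medians of 527 and 592, above it. Their high mutant signals thus helped to bring them among the 8, and the count of 5 is to be read with that limit. Ccna2 ran from 139.8 through a median of 1224 to 2119 on the 22 mutant arrays and from 207 through 579.6 to 1425 on the 12 C57BL10 arrays. Its lowest mutant value was mdx soleus sample 2, the array with the highest actin ratio (1.96), and its highest C57BL10 value was the low-correlation TA sample, without which C57BL10 ended at 869.6. The log2 difference of Ccna2 was 0.94 ± 0.23 (SE, limma adjusted p = 0.0043).

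The other cyclin, Ccnb2, ran from 807 through a median of 1876 to 3305 in the mutants and from 605 through 982 to 4950 in C57BL10. Leaving out C57BL10 TA sample 2 brought the C57BL10 maximum to 1325, and the 3 mutant arrays under that value were mdx samples 2 of quadriceps, soleus and TA. The difference was 0.73 ± 0.16 (adjusted p = 0.0022).

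Mad2l1 codes for a spindle checkpoint protein that holds cells in mitosis until chromosomes are attached. It ran from 344.3 through 527 to 1004 in the mutants, where 2 of 22 arrays were under their 40th percentile, and from 103 through 297 to 433 in C57BL10, where 11 of 12 were. The difference was 0.91 ± 0.19 (adjusted p = 0.00098), with C57BL10 close to the background throughout.

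Aurka codes for the mitotic kinase Aurora A. It ran from 155.5 through 425 to 789.5 in the mutants and from 83.3 through 538 to 773 in C57BL10, ranges that largely overlap. Under their own 40th percentile were 9 of 22 mutant and 5 of 12 C57BL10 arrays, and 2 C57BL10 arrays were at or under the floor. The averaged difference was 0.05 ± 0.17 (adjusted p = 0.88).

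Mki67, the gene of the Ki-67 antigen that coats mitotic chromosomes and is the standard label of cycling cells, had a large averaged difference. Its first probe set ran from 94.3 through 369.6 to 743 in the mutants, with 2 of 22 arrays at or under the floor, and from 15.4 through 78.2 to 606 in C57BL10, with 7 of 12 there. All 12 C57BL10 arrays were under their own 40th percentile, so the size of the difference depends on the floor. Without the filter it was 1.23 ± 0.24 (adjusted p = 0.00078), where 7.40% of 12422 probe sets were called higher. The second Mki67 probe set did not show this: it ran from 219 through 558 to 2900 in the mutants and from 263.8 through 440.0 to 3049 in C57BL10, a difference of 0.19 ± 0.27 (adjusted p = 0.67). Both maxima were the low-correlation arrays.

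Top2a, the topoisomerase that untangles sister chromosomes, lay near the background in most samples. It ran from 35.5 through 223.7 to 417 in the mutants, with 7 of 22 arrays at or under the floor, and from 19.9 through 45.5 to 811 in C57BL10, with 10 of 12 there. The highest value of all was C57BL10 TA sample 2, and the next C57BL10 array was at 146.3. The difference without the filter was 0.57 ± 0.23 (adjusted p = 0.12) on all arrays and 0.79 ± 0.15 (adjusted p = 0.0017) without the low-correlation arrays, where 10% of 12422 probe sets were called higher.

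Of the replication genes, Rrm2 codes for the small subunit of ribonucleotide reductase, which makes deoxynucleotides in S phase. It ran from 260.0 through 592 to 896 in the mutants and from 178.7 through 257 to 1077 in C57BL10, or to 407 without TA sample 2. Under their own 40th percentile were 2 of 22 mutant arrays and 8 of 12 C57BL10 arrays, so much of the C57BL10 baseline was near the background. The difference was 0.97 ± 0.21 (adjusted p = 0.0012). Pcna, the sliding clamp of DNA polymerase, which also serves in DNA repair, ran from 847 through 2506 to 3926 in the mutants and from 531 through 1435 to 2625 in C57BL10. Its low extreme in C57BL10 was TA sample 2, on which 7 of the other 8 members had their C57BL10 maximum. The difference was 0.74 ± 0.14 (adjusted p = 0.00056).

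Mcm5 is a subunit of the MCM helicase that opens DNA at origins. It ran from 284.8 through 1010 to 1958 in the mutants and from 254.4 through 688 to 1121 in C57BL10, and the difference of 0.56 ± 0.21 missed the threshold (adjusted p = 0.061). With 1 array left out in turn the adjusted p of Mcm5 ran from 0.016 to 0.17, and it passed without C57BL10 gastroc sample 2, C57BL10 soleus sample 2, mdx quadriceps sample 1 or mdx5cv TA sample 2. The second Mcm5 probe set ran from 79 through 377 to 956 in the mutants and from 162.7 through 412 to 2693 in C57BL10, a difference of -0.35 ± 0.27 (adjusted p = 0.40), so the probe sets of Mcm5 do not share a sign.

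Each mutant strain was then set against C57BL10, a comparison in which the 12 C57BL10 arrays are shared. In mdx 3 members rose, where 10% of probe sets were called higher: Mad2l1 by 0.97 ± 0.22 (adjusted p = 0.0031), Rrm2 by 0.95 ± 0.24 (0.0078) and Pcna by 0.63 ± 0.17 (0.012). In mdx5cv 5 members rose, where 10.5% were called higher: Ccna2 by 1.28 ± 0.27 (adjusted p = 0.0013), Ccnb2 by 0.93 ± 0.19 (0.0013), Mad2l1 by 0.84 ± 0.22 (0.0089), Rrm2 by 1.00 ± 0.24 (0.0051) and Pcna by 0.85 ± 0.17 (0.00082). The cyclins missed the threshold in mdx, with 0.59 ± 0.27 for Ccna2 (adjusted p = 0.14) and 0.53 ± 0.19 for Ccnb2 (adjusted p = 0.063), and Ccnb2 passed it without the low-correlation arrays (0.69 ± 0.15, adjusted p = 0.0024, where 12.1% of probe sets were called higher). Without mdx soleus sample 2, the array with the highest actin ratio, the Ccna2 difference in mdx was 0.80. Mki67, without the filter, rose by 1.11 ± 0.27 in mdx (adjusted p = 0.011, 5.71% of probe sets higher) and by 1.35 ± 0.27 in mdx5cv (adjusted p = 0.0020, 6.06% higher). Top2a was at 0.46 ± 0.26 in mdx and 0.69 ± 0.26 in mdx5cv (adjusted p = 0.35 and 0.13).

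The strains were also compared directly, and no member was called between mdx5cv and mdx, where 0.349% of probe sets were higher and 0.174% lower. Ccna2 was at 0.69 ± 0.28 (adjusted p = 0.39), the second Mcm5 probe set at 0.74 ± 0.32 (adjusted p = 0.44) and the first at -0.06 ± 0.25 (adjusted p = 0.95), and Ccnb2 stood at 0.40 ± 0.20 (adjusted p = 0.50). Mad2l1 had -0.13 ± 0.23 (adjusted p = 0.88) and Rrm2 0.05 ± 0.25 (adjusted p = 0.96). The threshold passed by the cyclins in mdx5cv and missed in mdx is therefore not a shown difference between the mutants.

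**Figure D2:**
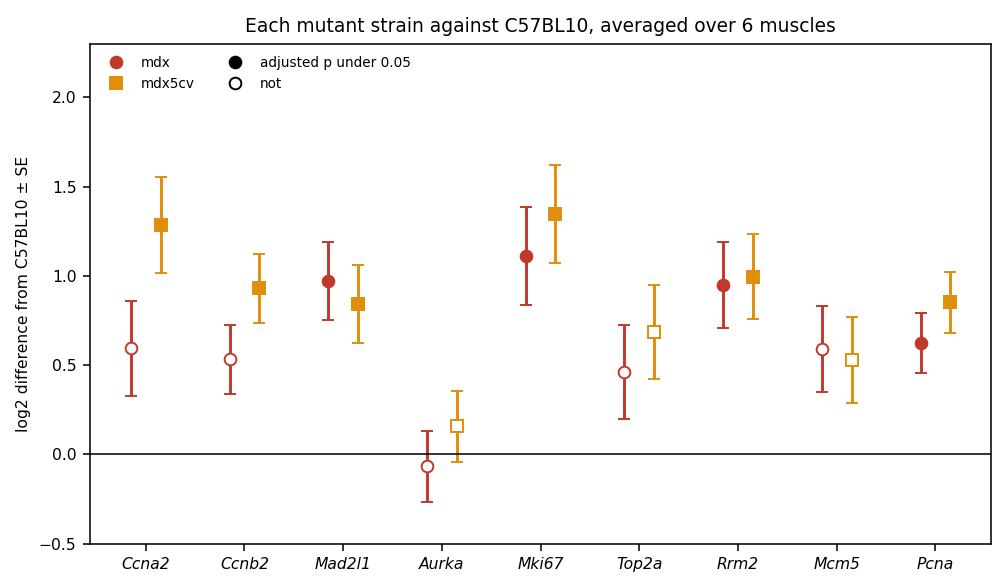
Log2 difference from C57BL10 ± SE, averaged over 6 muscles, for mdx (circles) and mdx5cv (squares), filled where the adjusted p was under 0.05. Mki67 and Top2a come from the fit without the filter, and Aurka, at -0.07 in mdx and 0.16 in mdx5cv, is the gene nearest 0.

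The scan period moved with strain, and the values with it as a block (30 arrays) stand beside the others here. The lone array of the fourth period, the one C57BL10 TA array with a known period, was joined to the third, since the C57BL10 TA level and a period of its own cannot be told apart. For mutants against C57BL10, Ccnb2 was 0.78 ± 0.19 (adjusted p = 0.012) and Rrm2 1.04 ± 0.27 (adjusted p = 0.018), and both passed, where 7.19% of probe sets were called higher. Ccna2 at 0.85 ± 0.33 (adjusted p = 0.11), Mad2l1 at 0.84 ± 0.30 (0.081), Mcm5 at 0.87 ± 0.30 (0.073) and Pcna at 0.50 ± 0.21 (0.15) did not. Without the filter Mki67 was 1.67 ± 0.26 (adjusted p = 0.0011) and Top2a 0.87 ± 0.22 (adjusted p = 0.030), where 4.40% were called higher. The block left no member that passed the filter called in mdx (6.19% of probe sets higher), and in mdx5cv (7.04% higher) it left Ccna2 (1.25 ± 0.34, adjusted p = 0.025), Ccnb2 (1.03 ± 0.20, 0.0024) and Rrm2 (1.16 ± 0.29, 0.014).

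With TA left out and the other 5 muscles averaged, an alternative chosen after the data were seen, the block needs no joined period. Ccnb2 (0.91 ± 0.22, adjusted p = 0.011) and Rrm2 (1.27 ± 0.31, adjusted p = 0.013) passed for the mutants, where 5.96% of probe sets were called higher. Rrm2 passed in mdx (1.23 ± 0.34, adjusted p = 0.031, 5.30% higher), and Ccna2, Ccnb2 and Rrm2 passed in mdx5cv (5.82% higher). Without the filter Mki67 was 1.66 ± 0.30 (adjusted p = 0.0033) and Top2a 0.90 ± 0.25 (adjusted p = 0.056), where 3.60% were called higher.

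Within the third period alone (15 arrays, 7 residual degrees of freedom) no member passed for the mutants together, where 2.97% of probe sets were called higher. The differences there were 1.18 ± 0.39 for Rrm2, 0.97 ± 0.38 for Mad2l1, 0.87 ± 0.28 for Ccnb2, 0.79 ± 0.43 for Ccna2, 0.79 ± 0.35 for Mcm5 and 0.29 ± 0.29 for Pcna. Of the 5 called members, Pcna was the one whose difference shrank by more than 1.5 times. In mdx5cv Ccnb2 passed within the third period (1.29 ± 0.30, adjusted p = 0.022, 2.76% of probe sets higher). Without the filter, neither Mki67 nor Top2a was called within this period, for the mutants together or for either strain, so the Mki67 calls were lost. How much of the averaged differences belongs to the period was not tested beyond these fits.

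**Figure D3:**
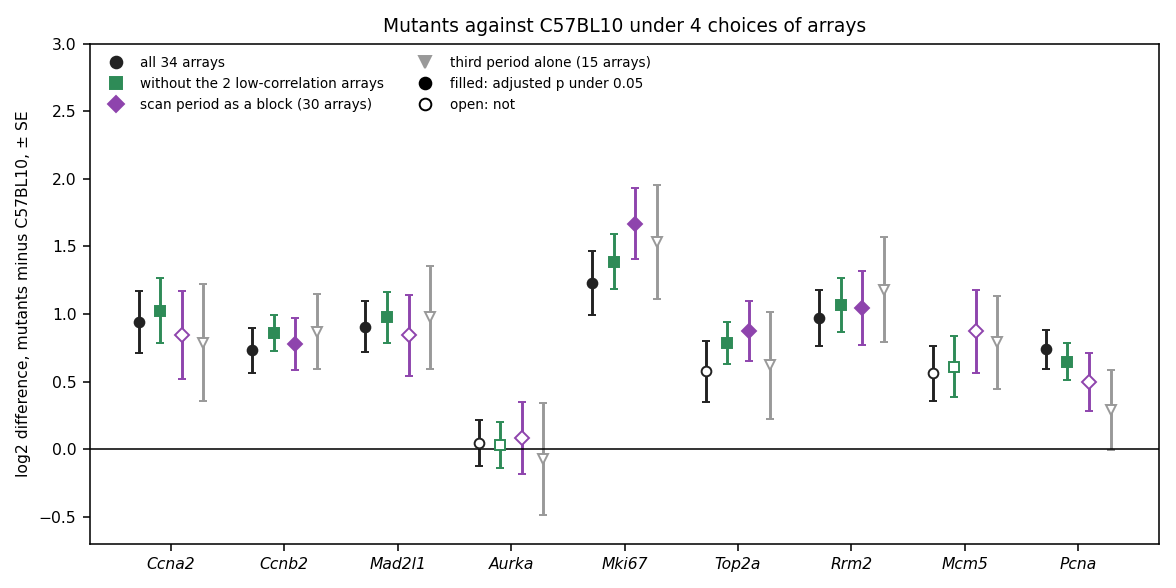
Log2 difference of mutants minus C57BL10 ± SE for the 9 genes on all arrays, without the 2 low-correlation arrays, with the scan period as a block and within the third period, filled where the adjusted p was under 0.05. Ccnb2, Rrm2 and Mki67 are filled in the first 3 settings, and Pcna is at 0.29 within the third period, which held no C57BL10 array of diaphragm or TA.

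Muscle by muscle, members were called in EDL, quadriceps and TA. In EDL Ccnb2 had 2192 and 2080 in mdx and 1941 and 2475 in mdx5cv, against 771 and 792 in C57BL10, and rose by 1.47 ± 0.39 (adjusted p = 0.041). Mad2l1 in EDL had 728 and 729.5 in mdx and 485 and 578 in mdx5cv, against 103 and 307 in C57BL10, and rose by 1.71 ± 0.45 (adjusted p = 0.036, and 0.083 with the scan period as a block), which became 1.02 without C57BL10 EDL sample 1, the array at 103. Among all probe sets 2.27% were called higher in EDL.

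In the quadriceps 2 members were called, where 3.92% of probe sets were called higher. Rrm2 had 820 and 538 in mdx and 551 and 801 in mdx5cv, against 212 and 194.6 in C57BL10, a rise of 1.71 ± 0.49 (adjusted p = 0.039). Ccnb2 had 1683 and 1200 in mdx and 2110 and 3305 in mdx5cv, against 759 and 792 in C57BL10, a rise of 1.32 ± 0.39 (adjusted p = 0.048). The groups did not overlap for either gene. With the period as a block both passed (4.74% of probe sets higher), at 1.64 (adjusted p = 0.035) and 1.22 (adjusted p = 0.025), and without the low-correlation arrays Rrm2 had an adjusted p of 0.053. The Ccnb2 calls in EDL and quadriceps were lost on leaving out any of 15 and 23 of 32 arrays in turn, and those of Mad2l1 and Rrm2 any of 5 and 7.

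In the diaphragm no member was called (2.29% of probe sets called higher). Ccna2 had 1130 and 1183 in mdx and 1723 and 1195 in mdx5cv, against 535 and 207 in C57BL10, a difference of 1.95 ± 0.54 (adjusted p = 0.051, 0.034 without the low-correlation arrays, where 4.35% of probe sets were called higher, and 0.60 with the period as a block). Diaphragm samples held liver transcripts, the mean log2 signal of 6 liver genes lying from 13.39 to 15.15 in the mutants and from 14.77 to 14.81 in C57BL10, and their part in these values was not tested. In gastroc, with 1 array for each mutant, no member was called either (2.15% of probe sets higher), although Ccna2 had 1301 in mdx and 1546 in mdx5cv, against 567 and 611 in C57BL10.

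In soleus the members' differences, by the first probe sets of Mki67 and Mcm5, ran from -0.07 to 0.73. The second Mcm5 probe set was lower in the mutants there, with geometric means of 181 in mdx, 288 in mdx5cv and 330 in C57BL10. Ccnb2 there had 1370 and 807 in mdx and 1354 and 1821 in mdx5cv, against 946 and 1122 in C57BL10, a difference of 0.32 ± 0.39 (adjusted p = 0.95). Mki67 had 97.4 and 94.3 in mdx and 159.5 and 262 in mdx5cv, against 34.9 and 145 in C57BL10. No member was called, and 1.38% of probe sets were called higher.

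In TA several values turned on C57BL10 TA sample 2. Pcna had 1692 and 2249 in mdx and 2561 and 2522 in mdx5cv, against 1221 and 531 in C57BL10, and was called at 1.47 ± 0.34 (adjusted p = 0.015, where 3.25% of probe sets were called higher), but without that array and the other low-correlation array the difference was 0.87 ± 0.40 (adjusted p = 0.42). The call was also lost without mdx TA sample 2. Ccnb2 in TA had 1979 and 991 in mdx and 2073 and 1426 in mdx5cv, against 1325 and 4950 in C57BL10, so its difference of -0.72 became 0.23 without these arrays. Rrm2 turned likewise, with -0.44 on all arrays and 0.27 without them. The C57BL10 TA samples also differed from the mutant ones in liver transcripts, with a mean log2 signal of the 6 liver genes from 7.60 to 9.31 in the mutants and of 11.18 and 11.56 in C57BL10, and 3 of these genes fell in TA, among them Ahsg (-3.65 ± 0.52, adjusted p = 0.00012). Their part in the TA values was not tested.

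**Figure D4:**
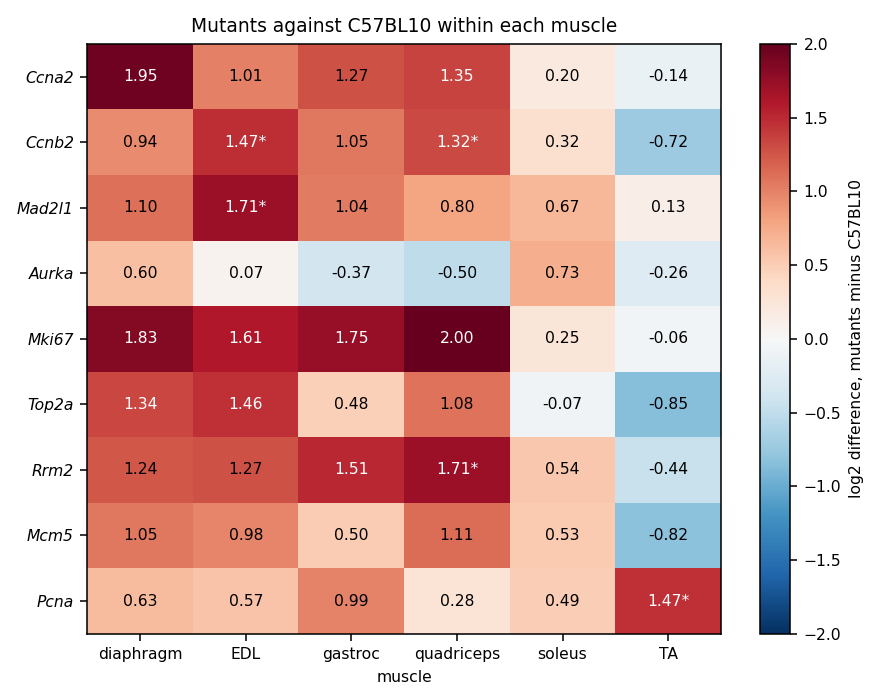
Log2 difference of mutants minus C57BL10 for the 9 genes (rows) in 6 muscles (columns), coloured from -2 to 2, with an asterisk where the adjusted p was under 0.05. Negative cells stand mainly in TA, such as -0.72 for Ccnb2, and for Aurka, such as -0.50 in quadriceps.

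Without a test, the arrays can be read by whether all mutant arrays of a muscle lay above both C57BL10 arrays. By the first probe sets of Mki67 and Mcm5, this held for 6 of 9 members in diaphragm, where 12.6% of the 12422 probe sets did the same, 6 in EDL (9.63%), 6 in gastroc (16.1%), 5 in quadriceps (10.6%), 4 in soleus (8.08%) and 1 in TA (5.86%). Ccnb2 and the first Mki67 probe set did so in diaphragm, EDL, gastroc and quadriceps. The soleus members were Mad2l1, Aurka, Rrm2 and Pcna, and the TA member was Pcna. All mutant arrays lay below both C57BL10 arrays for Aurka in gastroc, where 18.7% of probe sets did the same. The second probe sets behaved otherwise. That of Mki67 had all mutant arrays above C57BL10 in EDL and in no other muscle, and that of Mcm5 in none, while in diaphragm it had all of them below, with 376.8 to 559.5 in the mutants and 636.9 to 729.8 in C57BL10.

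Differences between muscles were tested too. The joint F test of the mutant difference over the 6 muscles called no member (lowest adjusted p 0.31, Ccnb2), where 0.671% of probe sets were called, and the difference in diaphragm against the mean of the 5 limb muscles called none either, where 0.0537% were called higher and 0.174% lower. No difference between muscles in the members' response was therefore shown.

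Aurka varied with muscle in normal mice. Over the C57BL10 muscles it differed (F test adjusted p = 0.00029), where 13.4% of probe sets did. C57BL10 samples had 83.3 and 222 in diaphragm, 130 and 89.3 in soleus, 469 and 499 in EDL, 576 and 588 in TA, 595 and 769 in quadriceps and 759 and 773 in gastroc. Those of diaphragm and soleus were all under the 40th percentile of their own arrays, and 83.3 and 89.3 were under the floor. Quadriceps and gastroc values overlap, as do those of diaphragm and soleus, and no pair of neighbours in this order was tested. The mutant arrays had 244 and 219 in mdx soleus, 155.5 and 215 in mdx5cv soleus, 177 and 207 in mdx diaphragm and 303 and 328 in mdx5cv diaphragm. These too were all under the 40th percentile of their own arrays. In quadriceps the mutant arrays had 522.8 and 216.4 in mdx and 583.4 and 789.5 in mdx5cv, and in gastroc 534 in mdx and 660.4 in mdx5cv. Levels between mutant muscles were not tested. Ccnb2 also passed the F test over C57BL10 muscles (adjusted p = 0.0496), and without the low-correlation arrays its adjusted p was 0.55.

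Other genes of the cell cycle were taken from lists by function. The tested ones are those that passed the filter, whose mean includes the mutant arrays. Their counts stand against 12.3% of all tested probe sets called higher and 6.61% lower. With the scan period as a block, 7.19% were called higher. Of 14 other mitosis genes 4 rose, 1 fell and 9 did not pass, with a median log2 difference of 0.07 against -0.03 over all probe sets. Those that rose were Cks1b, a small subunit of cyclin-dependent kinases (1.54 ± 0.28), Kif22, a chromosome-binding kinesin (1.43 ± 0.12), Anln, the cytokinesis protein anillin (1.15 ± 0.23) and Smc4, a condensin subunit (0.86 ± 0.13), which was named after its values were seen. Pttg1, securin, the inhibitor of separase, fell (-1.72 ± 0.18). Its change was -2.88 ± 0.21 in mdx, and it was higher in mdx5cv than in mdx by 2.32 ± 0.22 (adjusted p = 2.4e-07). In mdx5cv against C57BL10 it was not called lower, so the fall was called in mdx alone. Median signals were 1526 (mdx), 6299.5 (mdx5cv) and 9698 (C57BL10).

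Of 24 other replication genes 3 rose and 21 did not pass, a share near that of all probe sets, with a median of 0.01. These were the DNA ligase Lig1 (0.90 ± 0.30, adjusted p = 0.036) and 2 further helicase subunits, Mcm4 (0.75 ± 0.17, adjusted p = 0.0020) and Mcm3 (0.45 ± 0.12, adjusted p = 0.011). With the scan period as a block Mcm4 alone of these passed. Of 8 genes listed under S-phase chromatin 3 rose, with a median of 0.28. Stmn1 (1.28 ± 0.20) is a microtubule regulator of dividing cells and not itself a chromatin gene. The others were the maintenance methyltransferase Dnmt1 (0.84 ± 0.17) and the histone methyltransferase Ezh2 (0.55 ± 0.14). With the block Stmn1 was the 1 that passed, and Dnmt1 and Ezh2 did not (limma adjusted p = 0.16 and 0.18).

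Among the regulators of G1 and among the inhibitors of the cycle 4 genes each rose, as 4 of the 14 other mitosis genes did. Of 13 G1 genes (median 0.13) 4 rose and 9 did not pass: Cdk2 (0.66 ± 0.17), Rb1, the retinoblastoma protein (0.65 ± 0.15), and the D-type cyclins Ccnd3 (0.60 ± 0.13) and Ccnd1 (0.58 ± 0.11). None of the 13 passed with the period as a block. Of 12 brakes of the cycle (median 0.18) 4 rose, 1 fell and 7 did not pass. Among them Cdkn1c, the inhibitor p57, rose by 1.52 ± 0.12 and Gadd45a, a stress-induced growth arrest gene, by 1.06 ± 0.12, while Btg1 rose by 0.90 ± 0.12 and Gadd45g fell (-1.02 ± 0.14). With the block 3 of the brakes rose and 1 fell.

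Markers of macrophages, regenerating fibres and fibroblasts were higher in the mutants, and those of lymphocytes and endothelium mostly did not pass. All 15 tested macrophage markers rose (median 1.87), and their mean log2 signal lay from 10.69 to 12.30 on the mutant arrays and from 9.30 to 10.49 on the C57BL10 arrays. All 10 regenerating fibre genes rose (median 2.32), with Myl4 at 3.45 ± 0.15 and Myh3 at 3.33 ± 0.17, and 6 of 12 myoblast genes rose, among them Myog (1.94 ± 0.17). Of 9 fibroblast markers 8 rose (median 1.36). Lymphocyte markers had 1 of 5 higher and endothelial markers 1 of 9 lower (Flt1, -0.75 ± 0.13). Of 3 erythroid markers 2 fell, of 6 liver genes none passed over the 6 muscles, and of 10 fibre genes 1 fell (Mb, -0.71 ± 0.14). With the scan period as a block 14 of the 15 macrophage, 9 of the 10 regenerating fibre, 7 of the 9 fibroblast, 6 of the 12 myoblast and 0 of the 5 lymphocyte markers were higher. Among all tested probe sets 7.19% were called higher with the block and 12.3% without it. The part of each cell type in the values of the members was not tested.

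The macrophage level is given here by muscle, and levels between mutant muscles were not tested. Its median was 12.11 in diaphragm, 12.06 in quadriceps, 12.00 in gastroc and 11.77 in EDL, against 10.47, 9.39, 9.55 and 9.60 in C57BL10. In soleus it was 11.20 against 9.58, and in TA 10.87 against 9.61. The regenerating fibre genes stood at 11.67 in mutant soleus against 9.70 in C57BL10 soleus and at 12.09 in mutant diaphragm against 8.90 in C57BL10 diaphragm. In the other muscles they stood at 12.01 against 9.48 (quadriceps), 11.83 against 10.12 (EDL), 11.77 against 9.51 (gastroc) and 11.56 against 10.22 (TA).

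Among themselves the members were alike to different degrees. Over the 18 group means the Pearson correlation of a gene with the mean profile of the other members was 0.94 for the first Mki67 probe set, 0.87 for Ccnb2, 0.82 for Ccna2, 0.81 for Rrm2 and for Top2a, and 0.77 for Mad2l1. It was 0.55 for Mcm5, 0.31 for Pcna (0.59 without the low-correlation arrays), 0.16 for Aurka and 0.47 for the second Mki67 probe set, the one that belongs to the mean profile. Of 5687 other genes the 8 most like the mean profile of the 8 members that passed the filter were the chemokine gene Ccl7 (0.93), the PCNA-binding factor Pclaf (0.91), Evi2a (0.90), Apobec1 (0.89), Capn6 (0.89), the chemokine gene Ccl2 (0.89), Rgs10 (0.88) and the Fc receptor gene Fcgr1 (0.88). Without the low-correlation arrays 4 of these, Ccl7, Evi2a, Apobec1 and Ccl2, ranked within the first 8, and the other 4 ranked from 17 to 44. Points share strain and muscle, and a gene that is higher in the mutants is alike by that alone. Aurka, alone among them, was most like Fam189b (0.94), Macir (0.94) and Wnt4 (0.91), which were looked up after its values were seen.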

How the data were processed

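RNA was measured on Affymetrix MG_U74Av2 arrays. The deposited table holds linear signal intensities that the authors scaled per array: 2% trimmed means lay between 1500.4 and 1501.3. The sources used here do not give the algorithm that made the signals. Groups came from sample titles, and mdx EDL sample 1, whose description names mdx5cv, was grouped as mdx by its title. Scan times and control probe ratios came from other fields of the deposited experiment and value files.

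Signals were floored at the 20th percentile (118) and put on a log2 scale. Of 12422 probe sets that are not controls, 7453 passed the filter (mean log2 signal not under the table's 40th percentile) and were fitted in limma 3.58.1 (R 4.3.3) with 18 group means, 34 arrays and 16 residual degrees of freedom, eBayes with a trend, and Benjamini-Hochberg adjustment within each comparison (threshold 0.05, two-sided). A group of 1 array was taken to have the spread of the rest. The period block joined the 1 array of the fourth period to the third. The fit within the third period had terms for strain and muscle. Gene names are those of the platform annotation, which names 1 gene on 10855 probe sets, more than 1 on 396 and no gene on 1237. A listed gene is represented by its probe set of highest mean. Every member is named, with up to 4 genes past the threshold per cell cycle list and 3 per marker list, by size, and the 8 genes most like the members. The main fit was tried on simulated data with independent noise. These held no scan periods or low-correlation arrays, so the trial says nothing about either. Members, lists and tests were chosen with earlier results of these data known. Promoters are from RefSeq, and figures were drawn with matplotlib 3.10.9. The number of arrays limits the precision.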

Additional observations from a re-analysis of the deposited data

Results flagged for a closer look

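The mutant arrays of Aurka lay on opposite sides of C57BL10 in soleus and gastroc. In soleus every mutant array lay above both C57BL10 arrays, the lowest mutant value being 155.5 and the highest C57BL10 value 130. All these soleus values were near the background, under the 40th percentiles of their own arrays, which ran from 290.5 to 401.7. The C57BL10 value of 89.3 was under the floor. In gastroc both mutant arrays lay below both C57BL10 arrays, the highest mutant value being 660.4 and the lowest C57BL10 value 758.6. All mutant arrays lay above C57BL10 in 8.08% of probe sets in soleus and below it in 18.7% in gastroc. The difference between these 2 muscles was not tested on its own; the joint test over 6 muscles gave Aurka an adjusted p of 0.79.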

How the results depend on the processing

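Of the 8 filtered members, 5 passed for the mutants together, with 2 under the scan period block with or without TA, 0 within the third period and 5 or 6 under each other alternative run. For mdx (3) the counts were 0 with the block, 1 with the block and without TA, 0 within the third period and 5 without the array of the highest actin ratio, an alternative chosen after the data were seen, and for mdx5cv (5) 3 passed under the block with or without TA and 1 in the third period alone. In the diaphragm (0) array weights gave 5 members, and 1 member passed with 1 probe set per gene, the gastroc copies kept, all 36 columns, or without the low-correlation arrays or that of the highest actin ratio. In EDL (2) quantile normalization and no filter gave 0, and no trend and the period block 1. In quadriceps (2) quantile normalization and no filter gave 0, and no trend, array weights and leaving out the low-correlation arrays 1. In TA (1) the period block, array weights and leaving out the low-correlation arrays gave 0. Over C57BL10 muscles (2) quantile normalization, no filter, the lower floor, no trend, the period block, array weights, and leaving out the low-correlation arrays or that of the highest actin ratio gave 1, Aurka. With 1 array left out in turn, members called ranged from 5 to 6 for the mutants, 3 to 5 for mdx, 5 to 6 for mdx5cv, 0 to 1 in diaphragm, 0 to 2 in EDL, 0 to 2 in quadriceps, 0 to 4 in TA (4 without C57BL10 TA sample 1), 0 to 1 in the joint test of muscles and 1 to 4 over C57BL10 muscles, both highest without C57BL10 TA sample 1. Signs turned for values that were not called: the second Mcm5 probe set (-0.35) was 0.15 with the period block, 0.21 with it and without TA, and 0.41 within the third period, and Aurka (0.05) was -0.016 over all 36 columns, -0.072 within the third period, -0.030 without C57BL10 diaphragm sample 1, -0.0073 without mdx quadriceps sample 1 and up to 0.12 with another array left out. The causes were not tested. Most of these counts are given without the share of all probe sets called under the same alternative, and they describe stability only. Without C57BL10 TA sample 1, the low-correlation TA sample 2 was the only C57BL10 TA array, so the counts under that setting rest on it. Those counts give no direction. Ccnb2 on TA sample 2 was 4950, above the mutant TA range of 991 to 2073. Pcna on it was 531, below the mutant TA range of 1692.5 to 2561. The labels do not say that sample numbers mark a batch, though in diaphragm, EDL, quadriceps and soleus both mutants' sample 1 was of the second scan period and sample 2 of the third. The numbers were not taken to pair the samples: deviations of same-numbered samples correlated at a median of 0.05 over 120 pairs of groups, 47 of them over 0.1. With the replicate block 5 members passed for the mutants, as without it, and 1 in the diaphragm, against 0. Mki67 and Top2a were not run with single arrays left out. Signals near the floor or under the 40th percentile of their array limit the values of Mki67, Top2a, Mad2l1, Rrm2 and Aurka in C57BL10.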
